A study of Mus musculus with 12 samples.

Results

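A list of 41 mouse genes that act in G2, mitosis and the meiotic divisions was followed through 12 RNA sequencing libraries. The genes were chosen by name: a gene was measured on the row whose gene name matched, and on the row with the highest mean where several matched. In GC2 cells 40 of the 41 genes had a row among 24711 named rows, and in spermatocytes all 41 had a row among 36823 named rows. The list sets 3 genes apart as germ cell members, Ccna1, Aurkc and Cdc25c, beside 38 others. All 41 are protein-coding and lie on 15 chromosomes (GENCODE M21, build GRCm38).

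The libraries form 4 groups of 3: GC2 cells with PHB knockdown, their GC2 controls, spermatocytes of conditional Phb knockout mice, and spermatocytes of control mice. GC2 is a cultured mouse line that the labels describe as spermatocytes, and the labels name no method of knockdown. The spermatocytes were sorted from digested seminiferous tubules after Hoechst staining, which separates germ cells by DNA content. The promoter that drives the deletion, the age of the mice and the number of animals per library are not stated in the labels. Phb encodes prohibitin, a protein of the inner mitochondrial membrane, and the study compared each loss of it with its own control.

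Entry into mitosis and into the meiotic divisions is driven by the kinase Cdk1 bound to cyclin A or cyclin B. Cdc25 phosphatases switch this kinase on, Polo and Aurora kinases build the spindle, and the spindle checkpoint holds back the anaphase-promoting complex, APC/C, until chromosomes are attached. Spermatocytes load much of this machinery during the long meiotic prophase, well before they divide, and use germ cell versions such as cyclin A1 and Aurora C beside the versions shared with dividing body cells.

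Values are FPKM as deposited, a level scaled by transcript length and by the size of the library. Log2 fold changes are of FPKM + 1, so that those of genes with low values come out too small, and stand with their SE after ±. A gene was called at a two-sided Benjamini-Hochberg adjusted p under 0.05 from limma over all rows tested in its comparison. The total FPKM per library ran from 194949 to 201776 in GC2 knockdown cells and from 203973 to 206711 in GC2 controls, and from 290427 to 297362 in knockout and from 289707 to 292931 in control spermatocytes. Read depth is unknown, so no counting interval can be given. Phb itself had 22.7, 18.4 and 19.0 FPKM in GC2 knockdown cells, against 56.6, 54.0 and 52.4 FPKM in GC2 control cells (log2 fold change -1.40, adjusted p = 0.00062). In knockout spermatocytes Phb had 11.8, 11.3 and 11.5 FPKM, against 12.6, 13.4 and 13.9 FPKM in control spermatocytes (-0.18, adjusted p = 0.0074). Whether part of the gene is missing cannot be read from 1 value per gene. Mitochondrially encoded rows took 17.1 to 19.5% of the FPKM in knockout and 12.2 to 13.6% in control spermatocytes.

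The markers of the spermatocyte libraries differed between genotypes across whole lists. All 12 pachytene and diplotene spermatocyte markers were lower, with a summed level of 68.3 to 71.2 FPKM in knockout against 2577 to 2626 FPKM in control spermatocytes. All 12 spermatid markers were lower too, with 10.2 to 13.0 FPKM in knockout against 891 to 929 FPKM in controls, and in the knockout 1 pachytene marker and up to 2 spermatid markers were at 0 in a library. Of these, 5 pachytene and 7 spermatid markers reached 1 FPKM in control libraries alone, so that they passed the filter only there and had to differ. The 7 other pachytene and 5 other spermatid markers were also called lower. Leptotene and zygotene markers summed to 261 to 269 FPKM in knockout and 373 to 385 FPKM in control spermatocytes, with 3 of 9 higher and 6 lower. Spermatogonial markers summed to 333 to 343 FPKM in knockout and 318 to 325 FPKM in controls, with 3 of 15 higher and 8 lower, 1 of these at 1 FPKM in control libraries alone. Sertoli cell markers summed to 5058 to 5275 FPKM in knockout against 1208 to 1285 FPKM in controls, with 14 of 15 higher, 1 of them at 1 FPKM in knockout libraries alone. Leydig cell markers summed to 202 to 206 FPKM in knockout against 27.4 to 28.5 FPKM in controls, with 7 of 7 tested higher, 1 of them at 1 FPKM in knockout libraries alone. Erythrocyte markers summed to 184 to 189 FPKM in knockout against 95.5 to 106 FPKM in controls, and immune markers to 38.9 to 42.5 FPKM in knockout against 18.4 to 24.4 FPKM in controls. Peritubular and endothelial markers summed to 60.4 to 62.5 FPKM in knockout against 41.2 to 43.0 FPKM in controls. These are sums over bulk samples, in which fewer cells of a type and less RNA per cell cannot be told apart. The part these shifts have in the division gene results was not tested.

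**Figure D1:**
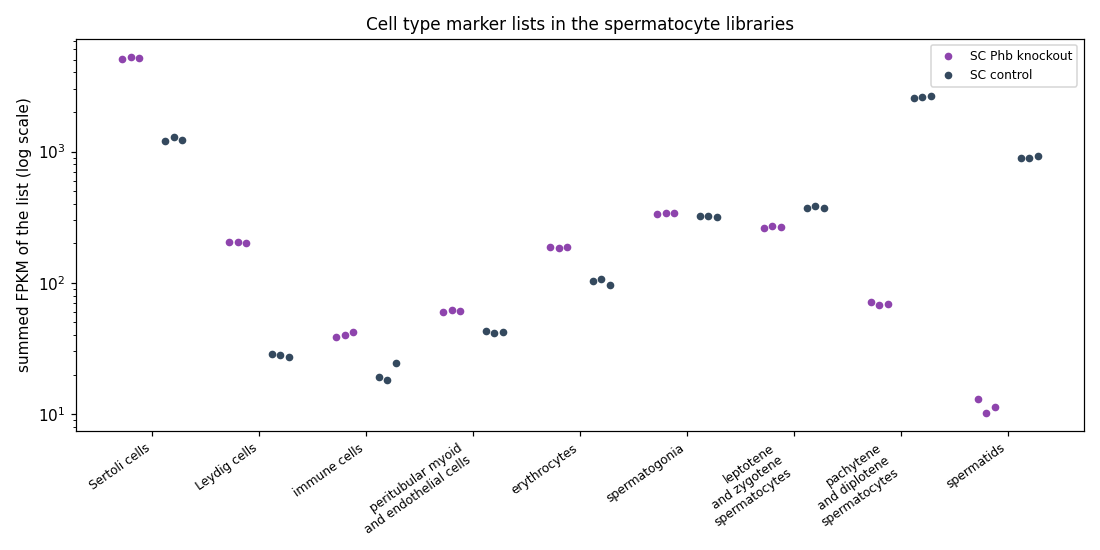
Summed FPKM of each cell type marker list (log scale) in the 3 knockout and the 3 control spermatocyte libraries, 1 point a library. The pachytene and diplotene sum lies between 68.3 and 71.2 in knockout and between 2577 and 2626 in control libraries, while the Sertoli sum lies between 5058 and 5275 in knockout and between 1208 and 1285 in control libraries.

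In GC2 cells the spermatocyte label was carried by few markers. Leptotene and zygotene markers summed to 1.63 to 1.76 FPKM in knockdown and 0.78 to 1.46 FPKM in control cells, with 6 of 9 on a row, and Dmc1 and Hormad1, a recombinase and an axis protein of meiotic prophase, had no row. The pachytene and diplotene sum of 39.3 to 61.1 FPKM in knockdown and 61.9 to 62.8 FPKM in control cells came mostly from Ybx3, and the spermatid markers summed to no more than 0.16 FPKM in knockdown and 0.23 FPKM in control cells. The sums of 2 more lists did not overlap between the GC2 groups. Peritubular and endothelial markers summed to 24.2 to 34.3 FPKM in knockdown and 105.7 to 113.8 FPKM in control cells, with Acta2, smooth muscle actin, called lower (-2.41 ± 0.06, adjusted p = 3.1e-05). Only 2 of the 9 rows of this list reached 1 FPKM in a GC2 library, and Acta2 was 1 of 2 genes tested. Spermatogonial markers summed to 48.8 to 61.6 FPKM in knockdown and 31.3 to 37.0 FPKM in control cells, with Uchl1 called higher (0.75 ± 0.11, adjusted p = 0.0083). Of the 11 spermatogonial rows 2 to 3 reached 1 FPKM in a GC2 library, and Uchl1 was 1 of 2 genes tested. Sertoli markers summed to 210.1 to 213.8 FPKM in knockdown and 206.5 to 216.7 FPKM in control cells, in overlapping ranges, while Clu, clusterin, on that list, was called higher (1.06 ± 0.06, adjusted p = 0.00038). The part these differences have in the GC2 division gene results was not tested.

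Most members were lower in knockout spermatocytes. In knockdown GC2 cells the share of members called was close to that of all rows with 6 libraries and no replicate block. The 41 genes summed to 513 to 526 FPKM in knockout and 996 to 997 FPKM in control spermatocytes, without overlap. In GC2 cells they summed to 1266 to 1343 FPKM in knockdown and 1251 to 1346 FPKM in control cells, and these ranges overlapped. In knockout against control spermatocytes 36 of 41 members were called lower and 2 higher, while 79.4% of the 15957 rows tested were called in either direction, 38.5% lower and 40.9% higher. With quantile normalization 30 members were lower and 3 higher, and the split of all rows moved to 8218 higher and 5041 lower, where the values as deposited gave 6533 and 6139. The median log2 fold change of the members was -0.58, against 0.05 over all rows tested, and 13 of the 41 (31.7%) were lower by at least 2-fold, against 21.6% of all rows. In 37 members the 3 knockout libraries lay below the 3 control libraries and in 2 above them, against 39.6% and 42.2% of all rows (81.8% in either direction). No member was higher by at least 2-fold, against 11.6% of all rows. Ccna1 and Aurkc passed the filter on low values through the control libraries alone, so they had to differ. Without them 34 of 39 members were lower, 2 higher, and the median was -0.55. Of these 39, 11 (28.2%) were lower by at least 2-fold. The shares of all rows still hold rows that passed the filter through 1 group alone, and shares without those were not computed. In knockdown against control GC2 cells 39 members could be tested: 6 were called higher, 4 lower and 29 were not called, so that 25.6% were called, against 24.5% of the 10791 rows tested there (10.7% higher and 13.9% lower). There quantile normalization left 6 members higher and 3 lower, and gave 1405 rows higher and 1215 lower, where the deposited values gave 1153 and 1496. Their median log2 fold change was -0.002, against -0.04 over all rows, and no member was called lower or higher by at least 2-fold, against 2.21% and 1.3% of all rows. In 6 members the knockdown libraries lay below the controls and in 7 above them, against 25.3% and 19.6% of all rows (44.9% in either direction). The 29 that were not called ran from -0.41 for Birc5 to 0.33 for Cdca8. The closeness of the GC2 shares did not hold in each setting. With a replicate block 2 members and 1985 rows were called. Without knockdown replicate 3, 1 of 39 members and 1704 of 10528 rows were called.

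**Figure D2:**
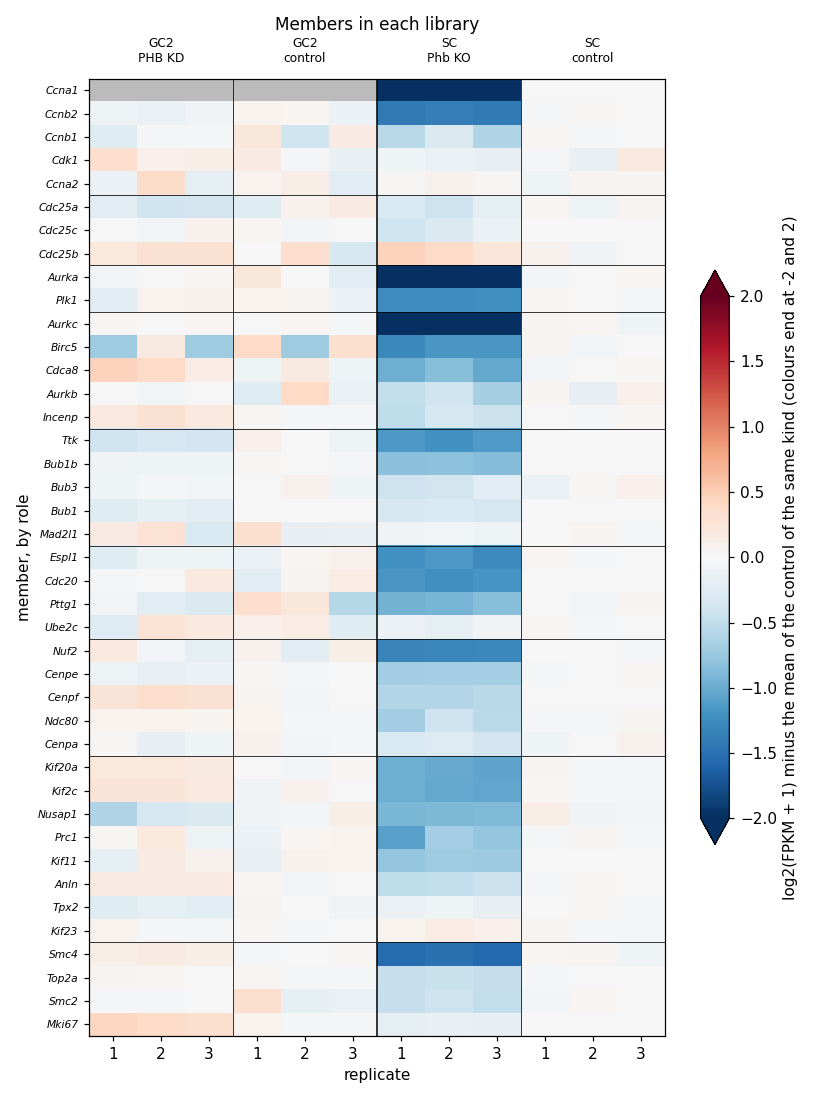
Colour gives log2(FPKM + 1) of each member (rows, by role) in each of the 12 libraries (columns), minus the mean of the control of the same kind, and grey marks a gene with no row. The knockout spermatocyte columns are blue for nearly the whole list, with Ccna1, Aurkc and Aurka past the end of the scale at -2, while the GC2 columns are paler, with the deepest blue for Birc5.

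The germ cell members separated by gene. Ccna1 encodes cyclin A1, which male mice need for the first meiotic division. It had 0.42, 0.48 and 0.37 FPKM in knockout spermatocytes, against 42.3, 42.8 and 43.1 FPKM in control spermatocytes. The groups lay far apart, the knockout mean being 0.991% of the control mean, with a log2 fold change of -4.94 ± 0.04 (adjusted p = 8.6e-09), the lowest of the 41 members. Aurkc encodes Aurora C, the Aurora kinase of meiotic cells. It had 0.79, 0.96 and 0.77 FPKM in knockout spermatocytes, against 12.6, 12.3 and 11.2 FPKM in control spermatocytes, and no knockout library reached 1 FPKM. Its log2 fold change was -2.83 ± 0.07 (adjusted p = 1.8e-07). Both Ccna1 and Aurkc passed the filter on low values through the control libraries alone. They had to differ, so their adjusted p-values give no support. Cdc25c, a phosphatase that activates Cdk1, had 2.78, 3.08 and 3.53 FPKM in knockout spermatocytes, against 3.97, 3.95 and 4.01 FPKM in control spermatocytes. These groups did not overlap but lay close, at a log2 fold change of -0.27 ± 0.07 (adjusted p = 0.014), and the call was lost with quantile normalization and with median centring.

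Ccna2 and Aurkb, relatives of Ccna1 and Aurkc that dividing body cells use, showed smaller log2 fold changes. Aurka, another relative, fell further than these, at -2.10 ± 0.04. Ccna1 and Aurkc themselves had to differ, having passed the filter through the control libraries alone. Ccna2, the cyclin A of dividing body cells, had 15.7, 16.4 and 15.6 FPKM in knockout spermatocytes, against 14.3, 16.1 and 16.1 FPKM in control spermatocytes. The 2 groups overlapped and Ccna2 was not called, at a log2 fold change of 0.04 ± 0.05 (adjusted p = 0.5). As a share of both A cyclins, Ccna1 thus made up 2.31 to 2.84% of the summed FPKM in knockout and 72.7 to 74.8% in control spermatocytes. Aurkb, the Aurora kinase of the chromosomal passenger complex in body cells, had 6.80, 7.36 and 5.92 FPKM in knockout spermatocytes, against 10.47, 8.79 and 10.9 FPKM in control spermatocytes, with no overlap and a log2 fold change of -0.52 ± 0.10 (adjusted p = 0.0035). Aurkc made up 10.4 to 11.5% of the summed Aurkb and Aurkc FPKM in knockout and 50.9 to 58.4% in control spermatocytes. Of the other Cdc25 phosphatases, Cdc25a had 5.92, 5.38 and 6.49 FPKM in knockout spermatocytes, against 7.82, 6.95 and 7.90 FPKM in control spermatocytes, and was called lower, at -0.31 ± 0.08 (adjusted p = 0.011), a call lost with quantile normalization and with median centring. Cdc25b had 5.99, 5.57 and 4.95 FPKM in knockout spermatocytes, against 4.34, 3.82 and 4.02 FPKM in control spermatocytes. It was higher in each knockout library than in any control, at 0.36 ± 0.07 (adjusted p = 0.0048), against the direction of most members. Cdc25c took 18.9 to 23.6% of the summed Cdc25 FPKM in knockout and 24.6 to 26.8% in control spermatocytes.

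Averaged over genes on the log2(FPKM + 1) scale, the 3 germ cell members stood at 1.09 to 1.19 in knockout and at 3.80 to 3.84 in control spermatocytes, and the 38 other members at 3.64 to 3.67 in knockout and 4.31 to 4.34 in controls. These are levels of gene averages, and no test was made between the sets. The germ cell average holds Ccna1 and Aurkc, which passed the filter through the control libraries alone and had to differ. The third gene, Cdc25c, changed by -0.27 in knockout spermatocytes, while the median change of the 38 others was -0.56. In GC2 cells Ccna1 had no row and Aurkc had 0.03, 0.01 and 0.05 FPKM in knockdown cells, against 0.01, 0.04 and 0 FPKM in control cells, under the filter. Cdc25c had 12.4, 11.99 and 13.4 FPKM in GC2 knockdown cells, against 12.9, 12.1 and 12.6 FPKM in GC2 control cells, overlapping groups with a log2 fold change of 0.01 ± 0.06 (adjusted p = 0.93). Of the germ cell members GC2 cells held only Cdc25c above 1 FPKM. In control spermatocytes Cdc25c was the lowest of the 41 members by mean, at 3.98 FPKM, so its levels do not mark it as a germ cell gene here. Ccna2 had 44.3, 62.3 and 41.7 FPKM in GC2 knockdown cells, against 50.6, 52.8 and 41.2 FPKM in GC2 control cells. Aurkb had 20.4, 19.5 and 20.5 FPKM in GC2 knockdown cells, against 16.8, 26.9 and 18.4 FPKM in GC2 control cells. Neither was called, at adjusted p = 0.95 for Ccna2 and 0.98 for Aurkb, and the Aurkb groups overlapped, with 1 control library above the others. Cdc25a had 4.18, 3.53 and 3.64 FPKM in GC2 knockdown cells, against 4.04, 5.33 and 5.70 FPKM in GC2 control cells. Cdc25b had 16.8, 17.9 and 18.1 FPKM in GC2 knockdown cells, against 14.2, 18.3 and 11.4 FPKM in GC2 control cells. Both pairs of groups overlapped and neither gene was called (log2 fold change -0.32 for Cdc25a and 0.27 for Cdc25b).

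**Figure D3:**
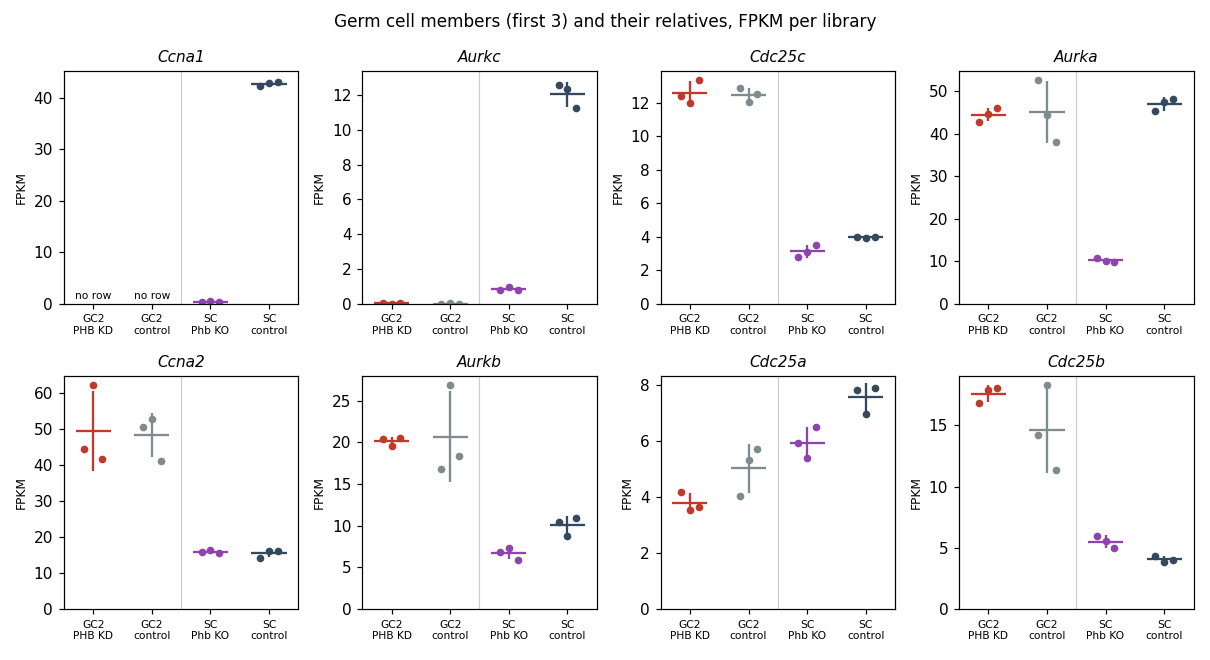
FPKM of Ccna1, Aurkc and Cdc25c and of the relatives Aurka, Ccna2, Aurkb, Cdc25a and Cdc25b in each library (points), with the group mean (horizontal line) and SD (vertical line, n = 3), for GC2 knockdown and control cells and for knockout and control spermatocytes. Ccna1 and Aurkc lie near 0 in knockout spermatocytes and at 42.3 to 43.1 and 11.2 to 12.6 FPKM in control spermatocytes, while Ccna2 overlaps between the genotypes.

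Cdk1 and the B cyclins form the kinase that drives division. Cdk1 had 8.36, 8.01 and 7.86 FPKM in knockout spermatocytes, against 8.63, 7.92 and 10.4 FPKM in control spermatocytes. The groups overlapped, with a log2 fold change of -0.13 ± 0.09 (adjusted p = 0.24). Ccnb1, cyclin B1, had 15.5, 18.8 and 14.9 FPKM in knockout spermatocytes, against 24.0, 22.8 and 23.2 FPKM in control spermatocytes, without overlap, and fell by a log2 fold change of 0.49 ± 0.09 (adjusted p = 0.0022). Ccnb2, cyclin B2, had 24.3, 24.8 and 24.4 FPKM in knockout spermatocytes, against 64.7, 67.8 and 67.1 FPKM in control spermatocytes, a wider gap, with a log2 fold change of -1.41 ± 0.03 (adjusted p = 8.5e-08). The ratio of Ccnb2 to Ccnb1 FPKM was 1.32 to 1.63 in knockout and 2.70 to 2.98 in control spermatocytes. In GC2 cells this ratio was 0.848 to 1.01 in knockdown and 0.747 to 1.24 in control cells. There Cdk1 had 37.5, 31.8 and 31.9 FPKM in GC2 knockdown cells, against 33.3, 28.9 and 26.5 FPKM in GC2 control cells, the largest absolute change of its role group, in overlapping groups and not called (0.19 ± 0.11, adjusted p = 0.28). Ccnb1 had 38.0, 43.8 and 43.7 FPKM in GC2 knockdown cells, against 53.1, 34.1 and 50.5 FPKM in GC2 control cells. Ccnb2 had 38.3, 37.2 and 39.1 FPKM in GC2 knockdown cells, against 43.1, 42.3 and 37.7 FPKM in GC2 control cells. Both overlapped between the groups and neither was called, at adjusted p = 0.71 for Ccnb1 and 0.32 for Ccnb2.

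The promoters of both B cyclins and of both strongly lowered germ cell members are shown because shared division genes are known for paired control elements near their start, and the germ cell pair can be read beside them. Each line gives 250 bases before to 50 bases after a RefSeq start site (GRCm38.p6), 5′ to 3′ on the gene's strand. Capitals mark matches, on either strand, to CCAAT (read by NF-Y), to TTTGAA (the cell cycle genes homology region, CHR) and to TAACNG (the core read by MYB proteins). No 2 matches shared a base in these windows.

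Ccnb1 (chr13:100786437-100786736, minus strand): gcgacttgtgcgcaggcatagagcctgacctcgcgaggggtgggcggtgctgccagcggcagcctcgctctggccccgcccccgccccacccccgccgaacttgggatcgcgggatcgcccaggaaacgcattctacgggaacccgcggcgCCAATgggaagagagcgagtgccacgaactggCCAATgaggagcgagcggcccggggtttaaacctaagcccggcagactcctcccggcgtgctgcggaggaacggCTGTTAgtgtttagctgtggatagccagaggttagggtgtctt
Ccnb2 (chr9:70421505-70421804, minus strand): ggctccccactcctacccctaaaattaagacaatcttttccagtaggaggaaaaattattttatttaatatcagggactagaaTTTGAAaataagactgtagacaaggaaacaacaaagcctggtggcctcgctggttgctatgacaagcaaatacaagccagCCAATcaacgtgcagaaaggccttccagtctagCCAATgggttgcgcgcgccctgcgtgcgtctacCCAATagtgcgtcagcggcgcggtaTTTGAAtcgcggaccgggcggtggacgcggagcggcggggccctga
Ccna1 (chr3:55055006-55055305, minus strand): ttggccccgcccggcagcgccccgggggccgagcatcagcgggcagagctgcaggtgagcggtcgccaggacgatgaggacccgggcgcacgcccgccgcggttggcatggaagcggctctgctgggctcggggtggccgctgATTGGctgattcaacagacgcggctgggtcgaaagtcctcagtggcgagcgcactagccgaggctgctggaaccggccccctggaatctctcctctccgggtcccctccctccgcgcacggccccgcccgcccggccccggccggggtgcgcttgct
Aurkc (chr7:6995135-6995434, plus strand): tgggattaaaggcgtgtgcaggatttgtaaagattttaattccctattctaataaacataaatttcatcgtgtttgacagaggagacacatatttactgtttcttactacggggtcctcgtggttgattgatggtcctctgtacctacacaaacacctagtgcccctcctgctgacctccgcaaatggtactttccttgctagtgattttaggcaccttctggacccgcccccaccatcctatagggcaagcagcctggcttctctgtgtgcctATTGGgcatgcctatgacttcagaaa

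In the Ccnb1 window CCAAT began at -99 and -67 from the start site, and the reverse complement of a MYB core at 8. In the Ccnb2 window CCAAT began at -87, -54 and -21 and TTTGAA at -167 and 5. The Ccna1 window held 1 CCAAT, as its reverse complement at -107, and the Aurkc window 1, as its reverse complement at 25; neither held TTTGAA or TAACNG. RefSeq and GENCODE do not place these starts at the same base: the RefSeq start lies inside the GENCODE gene by 84 bases for Ccnb1, 85 for Aurkc and 446 for Ccna1, and 7 bases outside it for Ccnb2. Of the 41 members 34 had a window. CCAAT was in the windows of 26 (76.5%), against 41.1% of 27025 genes with a window, TTTGAA in 22 (64.7%, against 20.2%), both in 19 (55.9%, against 7.97%) and TAACNG in 7 (20.6%, against 25.9%). A match is a run of letters, not a measured binding site.

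**Figure D4:**
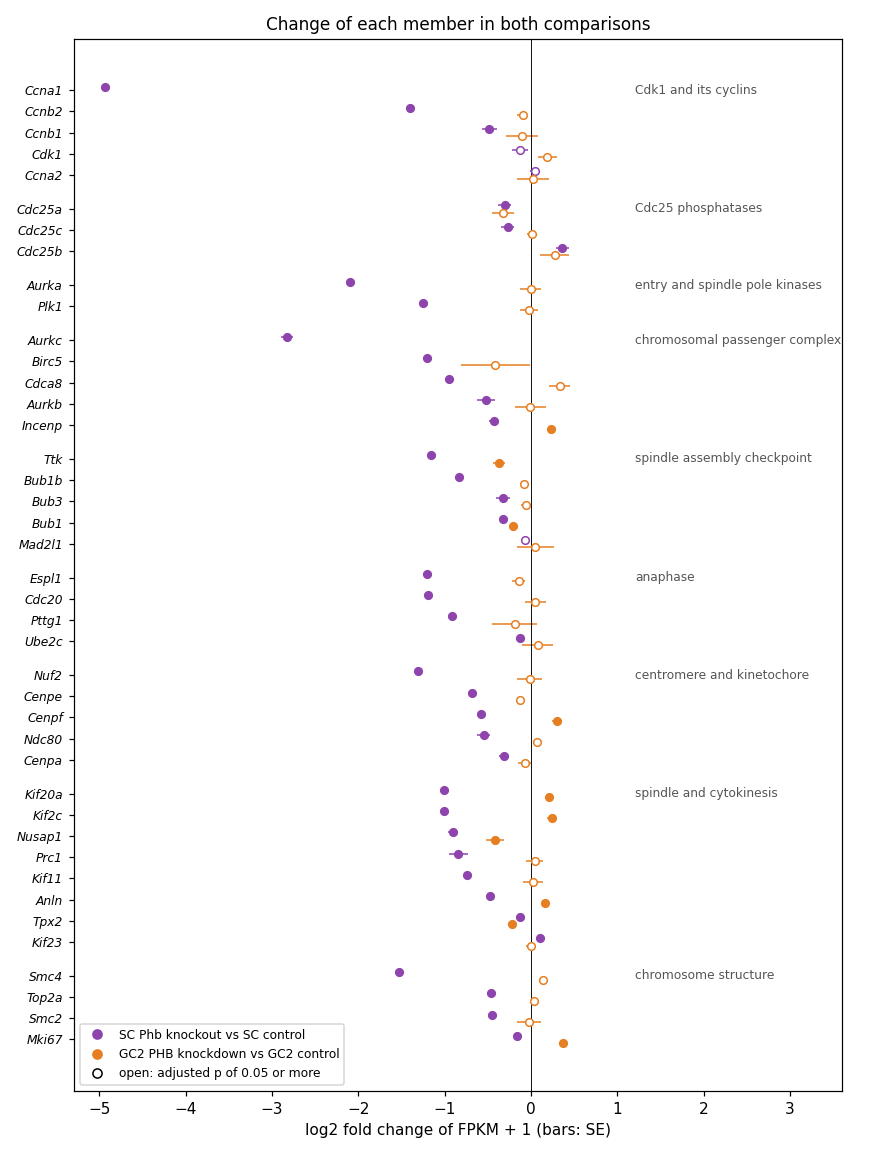
Log2 fold change of FPKM + 1 of each member by role (points, bars are SE), for knockout against control spermatocytes in purple and knockdown against control GC2 cells in orange, with open points for an adjusted p of 0.05 or more. Purple points run from -4.94 for Ccna1 to 0.36 for Cdc25b, and orange points lie between -0.42 and 0.37.

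Both kinases of entry and the spindle poles fell by more than 2-fold in knockout spermatocytes, where 21.6% of all rows were lower by at least 2-fold. Aurka, Aurora A, which matures the spindle poles, had 10.7, 10.1 and 9.80 FPKM in knockout spermatocytes, against 45.2, 47.4 and 48.2 FPKM in control spermatocytes. The knockout mean was 21.7% of the control mean, at a log2 fold change of -2.10 ± 0.04 (adjusted p = 9.8e-08). Plk1, the Polo kinase, averaged 13.3 FPKM in knockout spermatocytes and 33.1 FPKM in control spermatocytes, at -1.25 ± 0.03 (adjusted p = 1.1e-07). In GC2 cells Aurka had 42.8, 44.7 and 46.0 FPKM in GC2 knockdown cells, against 52.6, 44.3 and 38.1 FPKM in GC2 control cells. Plk1 had 32.2, 39.5 and 40.1 FPKM in GC2 knockdown cells, against 39.6, 39.2 and 34.8 FPKM in GC2 control cells. Both pairs of groups overlapped and neither was called, at adjusted p = 0.98 for Aurka and 0.88 for Plk1.

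The chromosomal passenger complex corrects faulty attachments at centromeres, with Aurora B or C as its kinase. All 5 of its members, against 38.5% of all rows, were called lower in knockout spermatocytes, with a median log2 fold change of -0.95. Aurkc, which passed the filter through the controls alone, is among them, and the other 4 had a median of -0.73. Beside Aurkc and Aurkb, described with the germ cell members, Birc5, survivin, averaged 7.38 FPKM in knockout spermatocytes and 18.3 FPKM in control spermatocytes (-1.21 ± 0.05, adjusted p = 2.2e-06). Cdca8, borealin, averaged 11.4 FPKM in knockout spermatocytes and 22.9 FPKM in control spermatocytes (-0.95 ± 0.05, adjusted p = 9.6e-06), and Incenp, the scaffold, averaged 18.0 FPKM in knockout spermatocytes and 24.7 FPKM in control spermatocytes (-0.43 ± 0.05, adjusted p = 0.00028). In GC2 cells Incenp was the 1 member of the 4 tested that was called: it averaged 18.7 FPKM in GC2 knockdown cells and 15.8 FPKM in GC2 control cells and rose, at 0.23 ± 0.05 (adjusted p = 0.03). This call was lost in 7 of 14 alternatives, and 24.5% of all rows were called in GC2 cells. Birc5 had 20.7, 39.1 and 20.7 FPKM in GC2 knockdown cells, against 45.2, 20.8 and 43.3 FPKM in GC2 control cells. Of its 6 GC2 libraries, 1 of each group went with the other group, and Birc5 was not called, with the largest SE of the members (-0.41 ± 0.40, adjusted p = 0.51).

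Of the 5 spindle assembly checkpoint genes, which delay anaphase, 4 were called lower in knockout spermatocytes, with a median over the 5 of -0.33. Of all rows 38.5% were called lower there. Ttk, the Mps1 kinase that starts checkpoint signalling, had 6.37, 6.09 and 6.45 FPKM in knockout spermatocytes, against 15.4, 15.3 and 15.4 FPKM in control spermatocytes, at a log2 fold change of -1.16 ± 0.03 (adjusted p = 4e-07). The groups lay apart by more than the spread within either. Bub1b, the BubR1 subunit, averaged 19.9 FPKM in knockout spermatocytes and 36.5 FPKM in control spermatocytes (-0.84 ± 0.02, adjusted p = 4.2e-07). Bub1, a kinase of centromeres, averaged 22.3 FPKM in knockout spermatocytes and 28.1 FPKM in control spermatocytes (-0.32 ± 0.02, adjusted p = 3.7e-05). Its partner Bub3 averaged 9.52 FPKM in knockout spermatocytes and 12.2 FPKM in control spermatocytes (-0.33 ± 0.08, adjusted p = 0.0095), a call lost with median centring. Mad2l1, the Mad2 protein that binds Cdc20, averaged 6.14 FPKM in knockout spermatocytes and 6.50 FPKM in control spermatocytes. It was not called, at -0.07 ± 0.04 (adjusted p = 0.17), although its 3 knockout libraries lay below its controls. In GC2 cells Ttk had 9.04, 9.50 and 9.11 FPKM in GC2 knockdown cells, against 13.3, 12.2 and 11.4 FPKM in GC2 control cells. Bub1 had 31.5, 33.1 and 32.4 FPKM in GC2 knockdown cells, against 37.5, 37.5 and 37.8 FPKM in GC2 control cells. Neither pair of groups overlapped, and both fell, Ttk at -0.37 ± 0.07 (adjusted p = 0.016) and Bub1 at -0.21 ± 0.04 (adjusted p = 0.016). The Ttk call was lost in 3 of 14 alternatives and the Bub1 call in 5. The other 3 checkpoint genes were not called in GC2 cells, where 24.5% of all rows were called.

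The genes of anaphase were all called lower in knockout spermatocytes, against 38.5% of all rows, with a median of -1.05. Espl1, separase, the protease that cuts cohesin, had 7.96, 8.30 and 7.58 FPKM in knockout spermatocytes, against 20.2, 19.4 and 19.5 FPKM in control spermatocytes, at -1.21 ± 0.04 (adjusted p = 8.2e-07), in well separated groups. Cdc20, which activates the APC/C, was the highest member by FPKM in both genotypes and averaged 45.5 FPKM in knockout spermatocytes and 105 FPKM in control spermatocytes (-1.19 ± 0.02, adjusted p = 9.8e-08). Pttg1, securin, the inhibitor of separase, averaged 12.2 FPKM in knockout spermatocytes and 23.9 FPKM in control spermatocytes (-0.91 ± 0.04, adjusted p = 4e-06). Ube2c, the ubiquitin-conjugating enzyme of the APC/C, averaged 12.4 FPKM in knockout spermatocytes and 13.6 FPKM in control spermatocytes. It stood near the threshold (-0.13 ± 0.04, adjusted p = 0.041). Its call was lost in 10 of 14 alternatives, and its sign turned in 1 more, median centring. None of the 4 was called in GC2 cells, where Pttg1 had 39.8, 35.2 and 33.9 FPKM in GC2 knockdown cells, against 52.8, 48.9 and 27.6 FPKM in GC2 control cells, overlapping groups with 1 low control library (-0.19 ± 0.26, adjusted p = 0.63). Of all rows 24.5% were called in GC2 cells.

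All 5 genes of centromeres and kinetochores, the structures that hold chromosomes to the spindle, were called lower in knockout spermatocytes, with a median of -0.58. Of all rows 38.5% were called lower there. Nuf2 and Ndc80 encode partners in the same microtubule-binding complex. Nuf2 had 5.12, 5.17 and 5.28 FPKM in knockout spermatocytes, against 14.5, 14.4 and 14.1 FPKM in control spermatocytes, at -1.31 ± 0.03 (adjusted p = 2.1e-07). Ndc80 averaged 5.25 FPKM in knockout spermatocytes and 8.11 FPKM in control spermatocytes, at -0.55 ± 0.08 (adjusted p = 0.00069). The ratio of Nuf2 to Ndc80 FPKM was 0.890 to 1.10 in knockout and 1.66 to 1.81 in control spermatocytes, without overlap, and 0.247 to 0.328 in knockdown and 0.258 to 0.339 in control GC2 cells. Cenpe, a kinetochore motor, averaged 10.7 FPKM in knockout spermatocytes and 17.8 FPKM in control spermatocytes (-0.68 ± 0.03, adjusted p = 1.8e-06), and Cenpf, a kinetochore protein that builds up in G2, averaged 13.5 FPKM in knockout spermatocytes and 20.6 FPKM in control spermatocytes (-0.58 ± 0.03, adjusted p = 2.7e-06). Cenpa, the centromeric histone, averaged 4.59 FPKM in knockout spermatocytes and 5.95 FPKM in control spermatocytes (-0.31 ± 0.06, adjusted p = 0.0038), a call lost with quantile normalization and with median centring. In GC2 cells Cenpf rose. It had 6.75, 7.31 and 7.02 FPKM in GC2 knockdown cells, against 5.78, 5.27 and 5.50 FPKM in GC2 control cells, without overlap (0.30 ± 0.06, adjusted p = 0.018), and the other 4 were not called. The Cenpf call was lost in 5 of 14 alternatives, and 24.5% of all rows were called in GC2 cells.

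Of the 8 genes of spindle motors, spindle organisers and cytokinesis, 7 were called lower and 1 higher in knockout spermatocytes, with a median of -0.79. Of all rows there 38.5% were called lower and 40.9% higher. Kif20a, a motor of the central spindle, had 17.9, 17.4 and 16.9 FPKM in knockout spermatocytes, against 37.4, 35.7 and 35.3 FPKM in control spermatocytes, at -1.01 ± 0.03 (adjusted p = 9.3e-07). Kif2c, which takes microtubule ends apart, averaged 10.4 FPKM in knockout spermatocytes and 22.1 FPKM in control spermatocytes (-1.01 ± 0.03, adjusted p = 8.6e-07). Nusap1, a microtubule bundler, averaged 6.81 FPKM in knockout spermatocytes and 13.7 FPKM in control spermatocytes (-0.91 ± 0.06, adjusted p = 1.8e-05), and Prc1, which bundles the central spindle, 7.26 FPKM in knockout spermatocytes and 13.7 FPKM in control spermatocytes (-0.84 ± 0.11, adjusted p = 0.00046). Kif11, the motor that parts the spindle poles, averaged 10.3 FPKM in knockout spermatocytes and 17.8 FPKM in control spermatocytes (-0.74 ± 0.03, adjusted p = 1.7e-06), and Anln, anillin, of the cleavage furrow, 7.03 FPKM in knockout spermatocytes and 10.2 FPKM in control spermatocytes (-0.48 ± 0.04, adjusted p = 4.6e-05). The fall was smallest for Tpx2, which activates Aurora A: it averaged 21.3 FPKM in knockout spermatocytes and 23.3 FPKM in control spermatocytes (-0.12 ± 0.03, adjusted p = 0.011). Its call was lost in 2 of 14 alternatives, and its sign turned in 1 more, median centring. Kif23, a motor of the midbody, was the exception. It had 10.96, 11.5 and 11.2 FPKM in knockout spermatocytes, against 10.8, 10.1 and 10.1 FPKM in control spermatocytes, at 0.11 ± 0.04 (adjusted p = 0.046), and this call near the threshold was lost in 8 of 14 alternatives. The mean level of Tpx2 in knockout was 91.4% of control, while that of Aurka was 21.7%.

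In GC2 cells 5 of these 8 were called, 3 higher and 2 lower. Of all rows there 24.5% were called, 10.7% higher and 13.9% lower. Nusap1 had 21.6, 26.1 and 27.0 FPKM in GC2 knockdown cells, against 31.9, 32.2 and 36.2 FPKM in GC2 control cells, at -0.42 ± 0.10 (adjusted p = 0.04). Tpx2 had 49.0, 50.7 and 50.6 FPKM in GC2 knockdown cells, against 60.9, 58.6 and 55.9 FPKM in GC2 control cells, at -0.22 ± 0.05 (adjusted p = 0.027). Both pairs of groups were separate and both genes fell. The other 3 rose: Kif2c averaged 20.2 FPKM in GC2 knockdown cells and 17.04 FPKM in GC2 control cells (0.24 ± 0.06, adjusted p = 0.035), Kif20a 69.0 FPKM in GC2 knockdown cells and 59.8 FPKM in GC2 control cells (0.20 ± 0.04, adjusted p = 0.021) and Anln 33.2 FPKM in GC2 knockdown cells and 29.5 FPKM in GC2 control cells (0.16 ± 0.04, adjusted p = 0.048). These changes were small, and each call was lost in 6 to 10 of the 14 alternatives.

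Chromosome structure genes were called lower in knockout spermatocytes in 4 of 4, against 38.5% of all rows, with a median of -0.46. Smc4 and Smc2 are the core pair of condensin, which compacts chromosomes. Smc4 had 32.6, 33.6 and 32.3 FPKM in knockout spermatocytes, against 98.9, 101 and 90.7 FPKM in control spermatocytes, at -1.53 ± 0.05 (adjusted p = 4.9e-07). Smc2 averaged 13.3 FPKM in knockout spermatocytes and 18.6 FPKM in control spermatocytes, at -0.45 ± 0.04 (adjusted p = 5.9e-05). The ratio of Smc4 to Smc2 FPKM was 2.45 to 2.49 in knockout and 4.85 to 5.54 in control spermatocytes. In GC2 cells it was 1.32 to 1.39 in knockdown and 0.937 to 1.37 in control cells. Top2a, a topoisomerase, averaged 30.4 FPKM in knockout spermatocytes and 42.2 FPKM in control spermatocytes (-0.46 ± 0.02, adjusted p = 6.5e-06), on a row shared with the small nucleolar RNA gene Gm23451. Mki67, the Ki-67 proliferation marker, averaged 20.5 FPKM in knockout spermatocytes and 23.2 FPKM in control spermatocytes (-0.17 ± 0.02, adjusted p = 0.00081), a call lost with quantile normalization and with median centring. In GC2 cells Mki67 had 66.6, 65.5 and 62.7 FPKM in GC2 knockdown cells, against 52.6, 48.6 and 48.7 FPKM in GC2 control cells, without overlap. It rose, at 0.37 ± 0.05 (adjusted p = 0.0063), and was the 1 of the 10 called members that kept its call under each of the 14 alternatives.

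The GC2 calls rest on few libraries. Leaving out 1 knockdown library left 4, 3 and 1 members called (replicates 1, 2 and 3 in turn), and leaving out 1 control library left 5, 2 and 5, where the 6 libraries together gave 10. Over all rows the same steps left 1648 to 2168 called of 10406 to 10528 tested, where the 6 libraries gave 2649 of 10791. The count of members called thus fell further than that of all rows. In spermatocytes the same step left between 34 and 37 members called, and 9811 to 11747 of the 13531 to 15294 rows tested. With 1 control library left out, whichever it was, Ccna1 and Aurkc no longer passed the filter. Of the 38 members called in spermatocytes 28 kept their call under each of the 14 alternatives. Ccna1 and Aurkc were called in the 11 alternatives in which they could be tested. With the values as deposited they passed the filter through the control libraries alone, so these calls are no measure of stability. The 8 that lost their call or turned sign in at least 1 alternative were Bub3, Cdc25a, Cdc25c, Cenpa, Mki67, Tpx2, Ube2c and Kif23.

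The changes in the 2 kinds of cell were then set against each other in 1 limma fit over the 12 libraries, on the 39 members and 8763 genes tested in both. The knockout comparison and the knockdown comparison share no library. For 26 of the 39 members the difference passed an adjusted p of 0.05, and each time the knockout change lay below the knockdown change. Over all genes 60.7% differed, 22.7% with the knockout change below and 38.0% with it above, and the median difference over all genes was 0.22. The difference was -2.09 for Aurka (adjusted p = 5.9e-07), -1.67 for Smc4 (1.7e-08), -1.31 for Ccnb2 (1.8e-07) and -1.29 for Nuf2 (4.5e-05). Cdc25c, the germ cell member tested in both, differed by -0.28 (0.026). Among the 13 that did not pass were Ccna2 (0.02, adjusted p = 0.94), Cdc25a (0.02, 0.93), Cdc25b (0.09, 0.72) and Cdk1 (-0.32, 0.099). Levels in the 2 kinds were not tested, since their row sets differ, but the order within each can be read: in control spermatocytes Cdc20, Smc4 and Ccnb2 led with 105, 96.8 and 66.5 FPKM, and in control GC2 cells Top2a, Smc4 and Kif20a with 130.2, 63.6 and 59.8 FPKM.

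Further genes of the pathway were counted in 5 lists, each to be read against the 40.9% of rows called higher and 38.5% called lower in spermatocytes and the 10.7% and 13.9% in GC2 cells. Among 24 tested regulators of G2 and M transcription, 9 were higher and 9 lower in knockout spermatocytes, 37.5% each and close to the shares of all rows, with a median of -0.01. Mybl1, the A-MYB factor of pachytene spermatocytes and also on that marker list, fell (6.87 FPKM in knockout spermatocytes and 18.0 FPKM in control spermatocytes; -1.27 ± 0.03, adjusted p = 2.7e-07), as did E2f8, a repressor of the E2F family (-1.36 ± 0.05, adjusted p = 8.1e-07), while Rbl2, p130, rose (0.98 ± 0.04, adjusted p = 1.5e-06). In GC2 cells 4 of 25 rose and 1 fell (20.0% called, against 24.5% of all rows), with E2f7 (0.63 ± 0.07, adjusted p = 0.0035), Mybl2 (0.39 ± 0.07, adjusted p = 0.012) and E2f8 (0.43 ± 0.07, adjusted p = 0.013) among those that rose.

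Of 20 genes that set Cdk1 activity 7 were higher and 9 lower in knockout spermatocytes, so that 80.0% were called, close to the 79.4% of all rows, with a median of -0.10. Hspa2, the germ cell chaperone that mouse spermatocytes need to assemble Cdk1 with cyclin B1, averaged 30.8 FPKM in knockout spermatocytes and 318 FPKM in control spermatocytes (-3.32 ± 0.02, adjusted p = 7e-09). It is also a pachytene marker on the list given with the markers. Cks2, a Cdk1-binding subunit needed for male meiosis in mice, averaged 79.3 FPKM in knockout spermatocytes and 151 FPKM in control spermatocytes (-0.92 ± 0.03, adjusted p = 1.5e-06), and Gadd45a, a stress-induced inhibitor of the kinase, rose (1.46 ± 0.06, adjusted p = 2.3e-06). In GC2 cells 1 of 18 was higher and 2 lower (16.7% called, against 24.5% of all rows). Gadd45a had 2.70, 7.89 and 4.04 FPKM in GC2 knockdown cells, against 20.9, 11.9 and 20.9 FPKM in GC2 control cells, and fell (-1.74 ± 0.39, adjusted p = 0.029). Ensa, an inhibitor of a phosphatase that opposes Cdk1, fell (-0.28 ± 0.07, adjusted p = 0.034), and Pkmyt1, an inhibitory kinase, rose (0.61 ± 0.15, adjusted p = 0.035).

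The list of 18 APC/C subunits and inhibitors also holds the APC/C activator Fzr1 and the ubiquitin-conjugating enzyme Ube2s. Of the 18 genes 10 were higher (55.6%, against 40.9% of all rows) and 5 lower (27.8%, against 38.5%) in knockout spermatocytes, with a median of 0.23. Fzr1 (-0.83) and Ube2s (-0.91) were among the 5 lower. Without Fbxo43 the lower count was 4 and the median 0.34. Fbxo43, an APC/C inhibitor of meiotic cells that passed the filter through the control libraries alone, averaged 0.70 FPKM in knockout spermatocytes and 8.41 FPKM in control spermatocytes (-2.47 ± 0.05, adjusted p = 1.2e-07). The subunit Anapc11 fell (-0.70 ± 0.04, adjusted p = 5.8e-06) and the subunit Anapc1 rose (0.49 ± 0.03, adjusted p = 9.1e-06). In GC2 cells 17.6% were called, against 24.5% of all rows: 1 of 17 rose, Anapc5 (0.27 ± 0.04, adjusted p = 0.0087), and 2 fell, Cdc27 (-0.27 ± 0.04, adjusted p = 0.0093) and Anapc4 (-0.14 ± 0.04, adjusted p = 0.045).

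Of 29 other kinetochore and checkpoint genes 22 were lower (75.9%, against 38.5% of all rows) and 1 higher (3.45%, against 40.9%) in knockout spermatocytes, with a median of -0.51. The inner kinetochore gene Cenpn averaged 7.73 FPKM in knockout spermatocytes and 33.7 FPKM in control spermatocytes (-1.99 ± 0.03, adjusted p = 2.9e-08). Cenpu, on a row shared with Gm45607, fell (-2.19 ± 0.08, adjusted p = 9.6e-07), as did Cenpo (-1.21 ± 0.05, adjusted p = 2e-06), and the higher one was Zwint, of the outer kinetochore (0.71 ± 0.04, adjusted p = 5.8e-06). With quantile normalization 4 of this list were higher and with median centring 5. In GC2 cells 1 of 29 rose and 3 fell (13.8% called, against 24.5% of all rows): Zwint (-0.22 ± 0.04, adjusted p = 0.017), Zwilch (-0.48 ± 0.09, adjusted p = 0.018) and Cenpi (-0.28 ± 0.07, adjusted p = 0.032).

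Condensin and cohesion genes were higher in 4 (20.0%, against 40.9% of all rows) and lower in 12 (60.0%, against 38.5%) of 20 tested in knockout spermatocytes, with a median of -0.30. Haspin, the kinase that places the chromosomal passenger complex at centromeres, averaged 2.35 FPKM in knockout spermatocytes and 115 FPKM in control spermatocytes, at -5.11 ± 0.05 (adjusted p = 1.2e-08). Meikin, a meiosis-specific kinetochore protein, averaged 0.95 FPKM in knockout spermatocytes and 8.93 FPKM in control spermatocytes (-2.34 ± 0.06, adjusted p = 2.3e-07), with 1 of 3 knockout libraries at 1 FPKM, and Stag3, a meiotic cohesin subunit, averaged 24.5 FPKM in knockout spermatocytes and 74.5 FPKM in control spermatocytes (-1.57 ± 0.04, adjusted p = 2.9e-07). In GC2 cells 1 of 15 tested was called higher and 3 lower. Stag3 had 0.61, 0.51 and 0.45 FPKM in GC2 knockdown cells, against 1.86, 2.25 and 2.11 FPKM in GC2 control cells, so that it passed the filter through the controls alone and had to differ. Of the other 14, 2 fell, the condensin subunit Ncapg (-0.32 ± 0.05, adjusted p = 0.008) and the shugoshin gene Sgol2a (-0.38 ± 0.07, adjusted p = 0.014).

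For 11 of the 41 members, annotated exons overlap a gene on the opposite strand. The longest overlap was 1271 of the 4338 exonic bases of Kif20a, with Cdc23, and Ccna1 shares 185 bases with 4931419H13Rik and Cdc25c 623 bases with Gm3550. The library kit marks strand per the labels' protocols, but whether counting used it is not stated there, and without strand the reads of such partners cannot be told apart.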

How the data were processed

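RNA was measured in 12 mouse libraries. The authors deposited 1 table per library with FPKM values per gene row. The tools listed per the submitters' processing notes are HISAT2 (version 2.1.0) and DESeq, beside 2 build names, GRCm38 and mm10, with no role. The quantifier, its annotation and filters, and the depth were not given in the sources used here. Low values showed no steps of whole fragments (highest concentration 0.19, where 1 is exact), so no reads could be recovered.

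Rows with a gene name were kept, so that 1200 unnamed GC2 rows and 164 unnamed spermatocyte rows stayed out of the tests. Rows with at least 1 FPKM in at least 3 of 6 libraries were fitted with limma 3.58.1 in R 4.3.3, with a variance trend, on log2(FPKM + 1), within GC2 or within spermatocytes. P-values were two-sided and Benjamini-Hochberg adjusted over all rows tested. The difference of the 2 changes was a contrast over 12 libraries. The scripts were tested on simulated data. Tables and figures were made with Python 3.11.15.

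Every-library values are given for the germ cell members, their relatives, Cdk1 and the B cyclins, the member of each role group with the largest absolute change in each comparison, and members called against the majority; up to 3 called genes with the smallest adjusted p are named per further list. The members and lists were chosen with earlier results of these data known. Alternatives were a pseudocount of 0.1, no filter, 2 other scalings, removal of mitochondrially encoded rows, summed rows, no variance trend, a replicate block and each library left out. After mitochondrially encoded rows were removed, each library was also scaled to a common total within GC2 or within spermatocytes. The labels number replicates 1 to 3 in each group. In GC2 cells same-numbered libraries deviated together with r from 0.061 to 0.124, and differently numbered ones with r from -0.074 to -0.001. In spermatocytes these ranges were -0.054 to 0.007 and -0.042 to 0.036. The labels state no pairing, so the main fits left the numbers out. Whether GC2 libraries of the same number share a batch cannot be told. With a replicate block 2 GC2 members were called, where the main fit called 10. The design text calls the replicates biological without naming cultures or animals, so p-values reflect only how far these samples differ, which may be technical. Promoters are from RefSeq (GRCm38.p6) and gene positions from GENCODE M21.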

Additional observations from a re-analysis of the deposited data

Results flagged for a closer look

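For 26 members the change in knockout spermatocytes against their controls differed from the change in knockdown GC2 cells against theirs, by the limma test of that difference over 12 libraries (adjusted p under 0.05). Values are the knockout change minus the knockdown change on the log2(FPKM + 1) scale, and each is negative. Among kinases, cyclins and phosphatases the difference was -2.09 for Aurka, -1.31 for Ccnb2, -1.22 for Plk1 and -0.28 for Cdc25c. In the chromosomal passenger complex it was -1.28 for Cdca8 and -0.67 for Incenp. Among checkpoint genes it was -0.79 for Ttk, -0.76 for Bub1b and -0.28 for Bub3. Among anaphase genes it was -1.24 for Cdc20, -1.07 for Espl1 and -0.72 for Pttg1. At kinetochores it was -1.29 for Nuf2, -0.88 for Cenpf, -0.61 for Ndc80 and -0.56 for Cenpe. Among spindle and cytokinesis genes it was -1.25 for Kif2c, -1.22 for Kif20a, -0.89 for Prc1, -0.77 for Kif11, -0.64 for Anln and -0.49 for Nusap1. Among chromosome structure genes it was -1.67 for Smc4, -0.54 for Mki67, -0.50 for Top2a and -0.43 for Smc2. Of all genes tested in both kinds 60.7% differed.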

How the results depend on the processing

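In knockdown GC2 cells 10 members were called, 6 higher and 4 lower. A replicate block left 2 (1 higher, 1 lower), and 1985 of all rows, where 2649 rows were called without it. Lower calls numbered 2 with median centring and 1 without mitochondrially encoded rows. That last setting also scaled the remaining FPKM of each library to a common total. Mitochondrially encoded rows took 0.035 to 0.128% of the FPKM in GC2 libraries. Which of the 2 steps moved the count was not tested. With 1 library left out, 1 to 5 members were called, 1 to 2 higher and 0 to 3 lower, and 1648 to 2168 of all rows. In knockout spermatocytes 38 were called. The higher count of 2 became 1 with no filter, with no variance trend and with the replicate block, and leaving out 1 library gave 34 to 37 called, 33 to 36 lower and 1 to 2 higher. Lower members numbered 30 with quantile normalization, 29 with median centring and 34 without mitochondrially encoded rows; these scalings moved the median of all rows to 0.28, 0.21 and 0.10. Median centring turned the log2 fold change of Tpx2 to 0.0355 (adjusted p = 0.32) and of Ube2c to 0.0345 (adjusted p = 0.52). Leaving out 1 control library also lowered the count of all rows called lower, 6139, to 3595 to 3618, since rows expressed only in controls then lack the 3 libraries that the filter asks for. Of members whose 2 changes differ (26), there were 22 to 27 with 1 library left out and 26 with the replicate block. None lay above the knockdown change, except 2 with quantile normalization and 2 with median centring. Spread estimated separately in each kind, an alternative chosen after seeing the data, gave 26. The causes were not tested.

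Limits: read depth is unknown and 3 libraries a group bound the precision. FPKM is a share of each library, so a gene's value moves with what other genes take. The knockout and control spermatocytes differ in markers of several cell types, and this cannot be told apart from change within a cell.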
